A study of Mus musculus with 4 samples.

Results

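The genes described here encode the proteins of the basement membrane. They were taken from the table of gene counts by symbol, 31 of the 56748 genes listed, and comprise 6 type IV collagen chains, 5 laminin alpha chains, 5 laminin beta and gamma chains, 4 nidogens and heparan sulfate proteoglycans, 4 collagens of the basement membrane zone and 7 associated proteins. The basement membrane is the thin sheet of extracellular matrix under epithelia and endothelia and around muscle, fat and nerve. Laminins, trimers of an alpha, a beta and a gamma chain, polymerize on cell receptors, type IV collagen forms a covalently crosslinked network beside them, and nidogens and perlecan connect both. In the alveoli of the lung the epithelial and the endothelial sheets are fused into the barrier across which gas is exchanged. A tumour cell that lodges in a lung vessel meets the sheet of that vessel, and carcinoma cells can also make laminins and type IV collagen themselves.

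RNA was sequenced from lungs carrying metastases of 4T1-FLuc, a firefly luciferase line of the mouse TNBC (triple-negative breast cancer) cell line 4T1, in 2 saline libraries and 2 cmLumiOpto/PARPi libraries. All hosts were BALB/cJ females injected with these cells through the tail vein at 7 weeks of age. The saline mice received no drug (0 mg/kg olaparib). The treated mice received an antibody-tagged exosome-associated AAV that carries cmLumiOpto, in which light from a luciferase opens a rhodopsin channel in the mitochondrial inner membrane, driven by a cfos promoter described as tumour-selective, together with ViviRen, the luciferase substrate, and olaparib, a PARP inhibitor (PARPi), given at 50 mg/kg. No group with 1 of these agents alone was analysed here, so their contributions cannot be told apart, and treatment lasted 3 weeks before harvest by the design text, while the time from injection to the first dose is not given in the sources used here. The sample labels name PBS as the control and tumour cells as the material, whereas the methods name saline and lung tissue. Lung markers were present in every library: Sftpc, which encodes surfactant protein C of alveolar type 2 cells, had 1020 and 176 CPM (counts scaled to a common library size, with TMM factors) in the saline libraries and 6153 and 2092 CPM in the treated libraries. The libraries held 15263375 to 16755228 counts, at which 3 counts, taken here as the floor of detection, correspond to 0.173 to 0.204 CPM, and this floor covers counting error only.

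To show the regulatory sequence that lies at these genes, the starts of some members are printed from RefSeq on GRCm38.p6, with every GC box (GGGCGG on either strand) and CCAAT box (CCAAT on either strand) in capitals. Col4a1 and Col4a2, which encode the chains of the common type IV collagen trimer, are transcribed away from each other, and their first 22 bases, chr8:11312805-11312826, overlap. That stretch is given on the strand of Col4a2.
Col4a1/Col4a2: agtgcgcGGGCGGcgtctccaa
The 250 bases before the start site follow for Hspg2, Nid1 and Lama5, the members with the smallest p-values that had an entry and could be shown, and for Lamb1, a partner chain of Lama5. They lie at chr4:137468553-137468802 (plus strand), chr13:13437352-13437601 (plus strand), chr2:180225860-180226109 (minus strand) and chr12:31265043-31265292 (plus strand), each printed on the strand of its gene.
Hspg2: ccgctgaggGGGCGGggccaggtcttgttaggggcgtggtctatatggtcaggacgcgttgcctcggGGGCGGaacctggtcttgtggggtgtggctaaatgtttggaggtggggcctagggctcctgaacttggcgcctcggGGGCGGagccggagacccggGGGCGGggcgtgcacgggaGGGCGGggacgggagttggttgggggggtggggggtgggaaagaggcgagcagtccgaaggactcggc
Nid1: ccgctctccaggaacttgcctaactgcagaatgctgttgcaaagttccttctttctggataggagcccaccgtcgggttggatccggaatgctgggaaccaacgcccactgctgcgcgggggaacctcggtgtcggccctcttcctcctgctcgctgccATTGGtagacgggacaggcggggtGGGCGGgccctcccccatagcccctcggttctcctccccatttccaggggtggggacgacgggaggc
Lama5: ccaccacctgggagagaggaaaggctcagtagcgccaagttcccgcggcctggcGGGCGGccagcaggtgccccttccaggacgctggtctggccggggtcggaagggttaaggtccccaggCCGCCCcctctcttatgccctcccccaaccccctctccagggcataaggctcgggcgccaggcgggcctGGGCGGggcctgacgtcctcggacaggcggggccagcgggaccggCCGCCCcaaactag
Lamb1: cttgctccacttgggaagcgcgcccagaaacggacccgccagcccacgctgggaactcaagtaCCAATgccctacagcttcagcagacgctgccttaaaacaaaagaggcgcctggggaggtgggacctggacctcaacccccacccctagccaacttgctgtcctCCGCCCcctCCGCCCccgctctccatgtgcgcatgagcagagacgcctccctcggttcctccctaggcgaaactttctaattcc
The Hspg2 window holds 5 GC boxes and the Lama5 window 4, without a CCAAT box in either, while the Lamb1 window holds 2 GC boxes and 1 CCAAT box and the Nid1 window 1 of each. Of the 31 members, 21 had an entry used here, with 27 start sites. A GC box stood in 48.1% of these 27 windows and in 32.7% of all 32851 windows of that length. For the CCAAT box the shares were 33.3% and 33.8%, and for TATAAA, the TATA box, 3.7% and 12.4%. GGAATG, the core bound by TEAD factors, stood in 18.5% and 12.6%, and TGACTCA, the AP-1 site, in 0 of the 27 and 4.46% of all. All motifs were searched on both strands, and such a match describes the letters only. Base composition bears on these shares, since the median GC content was 60.8% in the member windows and 52.4% in all windows.

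Most basement membrane genes had a lower level in the cmLumiOpto/PARPi libraries, including most of the abundant ones. Their counts made up 0.603% and 0.755% of the saline libraries and 0.419% and 0.464% of the treated libraries. Of the 31 members 30 had enough counts to be tested. Both treated libraries lay below both saline libraries in 17 of the 30, where 27.8% of all 15167 tested genes did so, and above both in 1, Col4a4, where 27.4% of all tested genes did so. The groups overlapped in the other 12. The log2 fold change (treated over saline) was negative in 25 and positive in 5, with a median of -0.56 against 0.02 over all tested genes. As 2 libraries against 2 cannot give an exact two-sided permutation p below 0.333 for a single gene, the tests below come from a model fitted across all genes. In bulk RNA, fewer cells of a type and less RNA per cell cannot be told apart.

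No member passed an adjusted p under 0.05 in edgeR's quasi-likelihood test, and neither did any other gene (0% of those tested). The smallest adjusted p of a member was 0.138. At an unadjusted p under 0.05, 12 members were lower and 1 was higher, against backgrounds of 12% and 9.21% of all tested genes. DESeq2 called 8 members at an adjusted p under 0.05, namely Hspg2, Lamc1, Nid1, Lama5, Lama3, Lamb1, Col4a2 and Col4a1, each lower after treatment, where it called 4.52% of all tested genes lower. Which genes pass therefore depends on the tool, and each value below is given with the quasi-likelihood test.

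**Figure D1:**
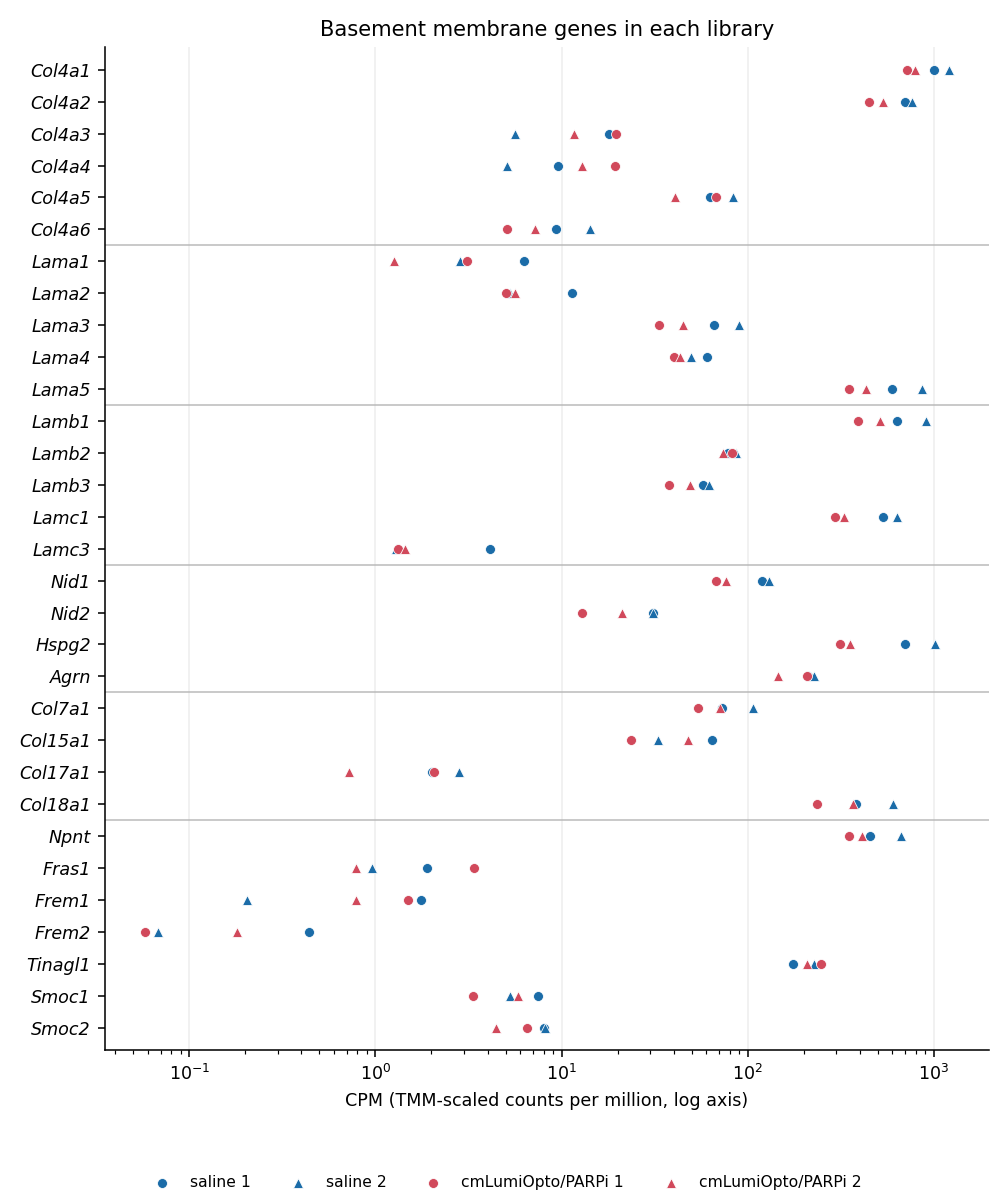
Level of each of the 31 basement membrane genes in each library, as TMM-scaled CPM on a log axis. Circles and triangles are replicates 1 and 2, blue for saline and red for cmLumiOpto/PARPi, and lines separate the groups of genes. For abundant genes such as Hspg2 (699 and 1019 CPM in saline, 314 and 356 after treatment) the red symbols lie left of the blue ones, while for rare genes such as Frem1 they are mixed.

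Lower levels without overlap between the groups were most frequent among the abundant members. Of the 10 tested members with a mean over 200 CPM in the saline libraries, 9 were lower in both treated libraries than in both saline libraries, the exception being Tinagl1. Of the 9 members from 20 to 200 CPM this held for 6, and of the 11 members under 20 CPM for 2, Col4a6 and Smoc2. Over all tested genes of any level this held for 27.8%, and the shares of all genes at these levels were not computed. The classes were cut on the saline mean, which by itself favours lower treated values among the abundant members. Of the 9 abundant members, Agrn was lower by a narrow margin only (212 CPM in saline replicate 1, 209 CPM in treated replicate 1). Counts are few in the class under 20 CPM, so a difference of the same size is less detectable there. Per length (TPM, counts scaled for gene length and library size, computed from the counts and the gene lengths), the highest member was Col4a1, with a mean of 452 TPM in the saline and 277 TPM in the treated libraries. It was followed by Npnt and Col4a2, whose saline libraries overlapped (274 and 402 TPM for Npnt, 321 and 350 TPM for Col4a2). Lamb1, Lamc1, Col18a1, Lama5, Hspg2 and Tinagl1 came next, with saline means from 140 to 237 TPM. Frem2 was the lowest, with 0.0582 TPM in saline.

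The core network of type IV collagen was lower in the treated libraries, while the ratio of its chains overlapped between the groups. Col4a1 (ENSMUSG00000031502, chr8:11248423-11362826 in the deposited table, whose coordinates follow mm39) had 1009 and 1207 CPM in the saline libraries and 715 and 794 CPM in the treated libraries. Col4a2 (ENSMUSG00000031503, chr8:11362805-11499287) had 697 and 763 CPM in saline and 447 and 533 CPM after treatment. For both genes the groups did not overlap, and saline replicate 2 was the highest library. The log2 fold change was -0.55 ± 0.17 (standard error) for Col4a1 (unadjusted p = 0.0200, adjusted p = 0.177) and -0.58 ± 0.17 for Col4a2 (unadjusted p = 0.0140, adjusted p = 0.160). Within each library the log2 ratio of Col4a1 to Col4a2 was 0.36 and 0.49 in saline and 0.51 and 0.40 after treatment, so the ratios overlapped between the groups. Per length, both chains together made up 94.8% ± 0.0037 (SD, n = 2) of all type IV collagen chains in saline and 93.6% ± 2.39 (SD, n = 2) after treatment.

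Col4a3 and Col4a4 encode chains that join the Col4a5 chain in the trimer of alveolar and glomerular basement membranes. Col4a4 (ENSMUSG00000067158, chr1:82426144-82564570) was the 1 member higher in both treated libraries, with 9.59 and 5.11 CPM in saline and 19.3 and 12.8 CPM after treatment. Its log2 fold change was 1.13 ± 0.39 (unadjusted p = 0.0278, adjusted p = 0.194). Against Col4a1 in the same library its log2 ratio was -7.22 and -8.39 in saline and -5.72 and -6.46 after treatment, a difference of 1.72 (exact two-sided permutation p = 0.333, the smallest that 2 against 2 can give). Col4a3, its neighbour on the opposite strand, had 18.1 and 5.66 CPM in saline and 19.5 and 11.6 CPM after treatment, and overlapped (log2 fold change 0.39 ± 0.56, adjusted p = 0.720). Saline replicate 2 was the lowest library for both genes and treated replicate 1 the highest. Col4a5 had 63.0 and 83.7 CPM in saline and 67.4 and 40.7 CPM after treatment, which overlapped (log2 fold change -0.44 ± 0.28, adjusted p = 0.396). Its neighbour Col4a6, whose start lies 1344 bases from that of Col4a5 on GRCm38.p6 and whose chain joins that of Col4a5 in other basement membranes such as those of smooth muscle, had 9.28 and 14.2 CPM in saline and 5.07 and 7.16 CPM after treatment. These groups did not overlap (log2 fold change -0.94 ± 0.34, unadjusted p = 0.0336, adjusted p = 0.205).

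All 5 laminin alpha chain genes had negative fold changes, and 3 of them did not overlap between the groups. Of all tested genes, 27.8% had both treated libraries below both saline libraries. All 5 chains belong to the longest of 5 equal groups by gene length (from 7273 bases), where that share was 53.5%. Lama5 (ENSMUSG00000015647, chr2:179818166-179867652), whose chain is in the laminins of epithelial and mature endothelial basement membranes, had 598 and 868 CPM in saline and 349 and 434 CPM after treatment. The lowest saline library was thus above the highest treated one, while the saline libraries themselves differed 1.45-fold. The log2 fold change was -0.90 ± 0.23 (unadjusted p = 0.00866, adjusted p = 0.145). Lama3 encodes the chain of the epithelial laminin that anchors hemidesmosomes. It had 65.8 and 90.4 CPM in saline and 33.4 and 44.9 CPM after treatment (log2 fold change -0.996 ± 0.23, unadjusted p = 0.00494, adjusted p = 0.138). For Lama4, the chain of endothelial and mesenchymal laminins, the levels were 60.8 and 49.8 CPM in saline and 40.1 and 43.1 CPM after treatment (log2 fold change -0.41 ± 0.16, unadjusted p = 0.0453, adjusted p = 0.228). Lama1, a chain mainly of embryonic basement membranes, and Lama2, the chain of muscle and nerve, overlapped between the groups. Lama1 had 6.27 and 2.86 CPM in saline and 3.11 and 1.26 CPM after treatment, and Lama2 had 11.4 and 5.32 CPM in saline and 5.01 and 5.66 CPM after treatment. Per length, Lama5 made up 83.0% ± 3.19 (SD, n = 2) of the laminin alpha chains in saline and 81.8% ± 0.691 (SD, n = 2) after treatment, which overlapped. The log2 ratio of Lama3 to Lama5 lay between -3.30 and -3.10 in all 4 libraries.

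Among the beta and gamma chains, which complete the laminin trimers, the common Lamb1 and Lamc1 were lower and Lamb2 overlapped between the groups. Lamc1 (ENSMUSG00000026478, chr1:153094668-153208532), the gamma chain of most laminins, had 531 and 635 CPM in saline and 296 and 329 CPM after treatment. Every treated library was thus well below every saline library, and the treated mean was 53.6% of the saline level. The log2 fold change was -0.90 ± 0.16 (unadjusted p = 0.00172, adjusted p = 0.138). Lamb1 (ENSMUSG00000002900, chr12:31315233-31379643) had 636 and 911 CPM in saline and 393 and 513 CPM after treatment (log2 fold change -0.77 ± 0.24, unadjusted p = 0.0184, adjusted p = 0.174). Lamb3, the partner of the Lama3 chain, had 57.6 and 61.7 CPM in saline and 37.8 and 48.9 CPM after treatment (log2 fold change -0.46 ± 0.17, unadjusted p = 0.0392, adjusted p = 0.216). Lamb2, the beta chain of mature vascular, synaptic and glomerular basement membranes, had 78.6 and 86.1 CPM in saline and 82.1 and 74.1 CPM after treatment. These libraries overlapped (log2 fold change -0.08 ± 0.13, adjusted p = 0.770), and the change is of the opposite sign, 0.03, under upper quartile scaling. Lamc3, a rare gamma chain, had 4.14 CPM in saline replicate 1 and from 1.29 to 1.44 CPM in the other 3 libraries.

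The connecting proteins held the largest difference of the list. Hspg2 (ENSMUSG00000028763, chr4:137196080-137297941), which encodes perlecan, the large heparan sulfate proteoglycan that binds growth factors and links laminin and collagen, had 699 and 1019 CPM in saline and 314 and 356 CPM after treatment. The treated level was 39.0% of the saline level, and the lowest saline library was still far above the highest treated one. The log2 fold change was -1.36 ± 0.22 (unadjusted p = 0.00103, adjusted p = 0.138). Nid1 (ENSMUSG00000005397, chr13:13612136-13686854), the main nidogen bridge between laminin and type IV collagen, had 120 and 130 CPM in saline and 67.3 and 76.8 CPM after treatment. Its replicates were close, 1.08-fold apart in saline and 1.14-fold apart after treatment, and its log2 fold change was -0.80 ± 0.14 (unadjusted p = 0.00137, adjusted p = 0.138). Nid2, the second nidogen, had 30.98 and 30.94 CPM in saline and 13.0 and 21.1 CPM after treatment (log2 fold change -0.86 ± 0.26, unadjusted p = 0.0175, adjusted p = 0.172). Agrn encodes agrin, the other heparan sulfate proteoglycan of the list, and its treated libraries were far apart. It had 212 and 228 CPM in saline and 209 and 146 CPM after treatment, which did not overlap by a narrow margin (log2 fold change -0.31 ± 0.20, unadjusted p = 0.177, adjusted p = 0.410).

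**Figure D2:**
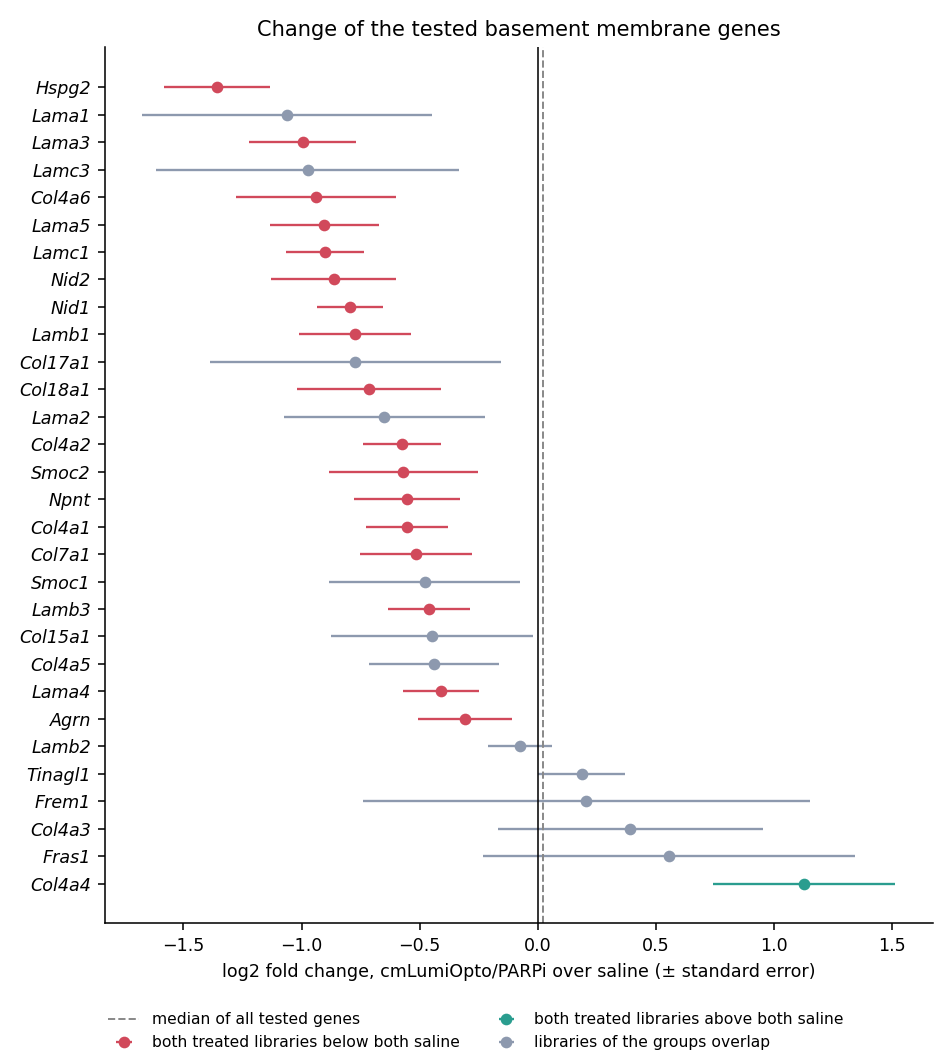
Log2 fold change of cmLumiOpto/PARPi over saline with its standard error for the 30 tested basement membrane genes, ordered by size. Red marks the 17 genes in which both treated libraries lay below both saline libraries, green Col4a4, grey the 12 genes whose groups overlapped, and the dashed line the median of all tested genes, 0.02. Hspg2 stands at -1.36 and Col4a4 at 1.13.

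The collagens of the basement membrane zone and the associated proteins differed less evenly, and none reached an unadjusted p under 0.05. Col18a1, whose protein bears heparan sulfate and releases endostatin, had 384 and 605 CPM in saline and 235 and 368 CPM after treatment (log2 fold change -0.71 ± 0.30, unadjusted p = 0.0578, adjusted p = 0.249). The margin between its groups was small, since saline replicate 1 and treated replicate 2 lay close together. Col7a1, the gene of the anchoring fibrils under stratified epithelia, had 72.6 and 107 CPM in saline and 53.8 and 71.4 CPM after treatment (log2 fold change -0.52 ± 0.24, adjusted p = 0.274). Col15a1, a collagen of vessel and muscle basement membranes, and Col17a1, a hemidesmosome collagen, overlapped between the groups. Col15a1 had 64.3 and 33.1 CPM in saline and 23.7 and 47.7 CPM after treatment, and Col17a1 stayed between 0.722 and 2.79 CPM.

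Npnt encodes nephronectin, a ligand of integrin alpha8 beta1, and had 453 and 665 CPM in saline and 350 and 412 CPM after treatment (log2 fold change -0.55 ± 0.22, unadjusted p = 0.05002, adjusted p = 0.235). Tinagl1, which encodes a matricellular protein that binds laminin and integrins, was the abundant member without a lower level. It had 175 and 226 CPM in saline and 248 and 208 CPM after treatment (log2 fold change 0.19 ± 0.18, adjusted p = 0.592), which overlapped. Smoc2, a calcium-binding matricellular protein gene, had 8.09 and 8.18 CPM in saline and 6.51 and 4.45 CPM after treatment (log2 fold change -0.57 ± 0.32, adjusted p = 0.346), while its relative Smoc1 overlapped (log2 fold change -0.48 ± 0.40, adjusted p = 0.523). The genes of the Fraser complex, which joins epithelium and mesenchyme in the embryo, were rare, and Frem2 was at the floor. Fras1 lay between 0.782 and 3.40 CPM, Frem1 between 0.204 CPM, which is 3 counts, and 1.76 CPM, and Frem2 had 7, 1, 1 and 3 counts and was not tested.

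Ratios within a library do not depend on the scaling between libraries, and some of them differed between the groups. These pairs were chosen after their values were seen, so their separation is a description. Agrn relative to Hspg2 had a log2 ratio of -1.05 and -1.495 in saline and 0.08 and -0.62 after treatment. Lamb2 relative to Lamb1 had -2.31 and -2.70 in saline and -1.55 and -2.09 after treatment. Tinagl1 relative to Lama5 had -0.39 and -0.55 in saline and 0.89 and 0.32 after treatment. In each of these pairs the lower treated ratio was above the higher saline one. The first gene was also the shorter in each pair: 9285 against 14739 bases, 6082 against 9917 and 4358 against 11388. Over all tested genes longer genes tended to lower fold changes (Spearman's rho = -0.37). The part of gene length in these ratios was not tested. Per length, Lamb1 made up 77.2% ± 3.44 (SD, n = 2) of the laminin beta chains in saline and 69.9% ± 3.69 (SD, n = 2) after treatment.

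**Figure D3:**
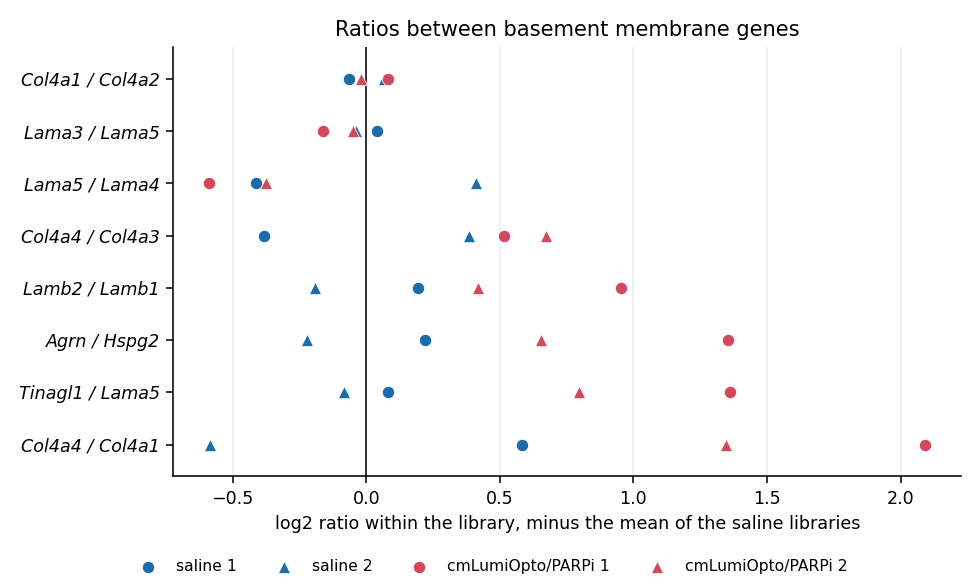
Log2 ratio between pairs of basement membrane genes in each library, minus the mean of the saline libraries. Circles and triangles are replicates 1 and 2, blue for saline and red for cmLumiOpto/PARPi. The ratio of Col4a1 to Col4a2 stays near 0 in all 4 libraries, while that of Col4a4 to Col4a1 lies higher in both treated libraries, by 1.72 on average.

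The receptors, assembly enzymes and proteases that act on the basement membrane were read from a list of 36 genes, all tested. Of these 0 passed an adjusted p under 0.05 in the quasi-likelihood test and 8 in DESeq2, which called 6.67% of all tested genes in either direction. At an unadjusted p under 0.05, 12 were lower and 2 higher, where 12% and 9.21% of all tested genes were, and the median log2 fold change was -0.25. Both treated libraries lay below both saline libraries in 19 of the 36 and above both in 5, against 27.8% and 27.4% of all tested genes.

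Of the 13 receptors, 6 were lower and 1 higher at an unadjusted p under 0.05, where 12% and 9.21% of all tested genes were. Dag1, which encodes dystroglycan, a laminin, agrin and perlecan receptor, had 378 and 318 CPM in saline and 249 and 230 CPM after treatment (log2 fold change -0.54, unadjusted p = 0.0139, adjusted p = 0.160). Itga6, the alpha chain of a pair of laminin-binding integrins, had 245 and 325 CPM in saline and 172 and 195 CPM after treatment (log2 fold change -0.63, unadjusted p = 0.0147, adjusted p = 0.163). Itga2, the alpha chain of a collagen and laminin receptor, also did not overlap (66.3 and 75.6 CPM in saline, 38.5 and 53.3 CPM after treatment, adjusted p = 0.177). On the other side, Bcam, a receptor for the laminin alpha5 chain, had 77.7 and 42.3 CPM in saline and 166 and 81.7 CPM after treatment (log2 fold change 1.04, unadjusted p = 0.0466, adjusted p = 0.231). Bcam thus went the opposite way from Lama5, with a narrow margin between saline replicate 1 and treated replicate 2. Itga8, the nephronectin receptor chain, overlapped (12.0 and 6.75 CPM in saline, 34.1 and 11.1 CPM after treatment, adjusted p = 0.268), and Cd151, a tetraspanin that associates with laminin-binding integrins, was slightly higher in both treated libraries (log2 fold change 0.30, adjusted p = 0.318).

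Of the 16 assembly and modification genes, 3 were lower and 1 higher at an unadjusted p under 0.05. These counts are near the shares of all tested genes, 12% and 9.21%. Lox and Loxl2 encode oxidases that crosslink collagens, and each was lower in both treated libraries. Lox had 195 and 144 CPM in saline and 74.0 and 82.6 CPM after treatment (log2 fold change -1.12, unadjusted p = 0.00109, adjusted p = 0.138). Loxl2, which acts on type IV collagen, had 82.8 and 72.8 CPM in saline and 32.9 and 44.2 CPM after treatment (log2 fold change -1.01, unadjusted p = 0.00195, adjusted p = 0.138). Pxdn, the peroxidase that forms the sulfilimine crosslinks of type IV collagen, had 194 and 238 CPM in saline and 146 and 170 CPM after treatment (log2 fold change -0.45, unadjusted p = 0.0360, adjusted p = 0.210). Ntn4, a netrin that binds laminin gamma chains and disrupts laminin networks, was higher, with 6.77 and 5.66 CPM in saline and 18.4 and 8.42 CPM after treatment (log2 fold change 1.11, unadjusted p = 0.0390, adjusted p = 0.215). P4ha2, a collagen prolyl hydroxylase gene, differed little (log2 fold change 0.24, adjusted p = 0.487). Colgalt2, a collagen galactosyltransferase gene, ranged from 0.0681 CPM, under the floor, to 3.11 CPM and overlapped (adjusted p = 0.460).

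Of the 7 degradation genes, 3 were lower at an unadjusted p under 0.05 and 0 higher, where 12% and 9.21% of all tested genes were. Mmp2, a gelatinase that cleaves type IV collagen, had 180 and 118 CPM in saline and 35.3 and 54.3 CPM after treatment, so that the treated level was 29.99% of the saline level. The groups did not overlap (log2 fold change -1.74, unadjusted p = 0.00110, adjusted p = 0.138). Mmp14, the membrane protease that activates the Mmp2 enzyme, had 622 and 621 CPM in saline and 349 and 446 CPM after treatment (log2 fold change -0.64, unadjusted p = 0.0109, adjusted p = 0.151). The inhibitor gene Timp3 was lower too, with 184 and 123 CPM in saline and 84.2 and 58.0 CPM after treatment (log2 fold change -1.11, unadjusted p = 0.00613, adjusted p = 0.139). Mmp9, the other gelatinase, overlapped (212 and 111 CPM in saline, 112 and 233 CPM after treatment, adjusted p = 0.916), as did the heparanase gene Hpse (adjusted p = 0.462).

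Markers of the resident lung epithelium differed between the groups in the opposite direction from the basement membrane genes. The summed level of all 31 members was 6088 and 7852 CPM in saline and 4045 and 4613 CPM after treatment. The 7 alveolar type 2 markers summed to 1682 and 442 CPM in saline and 8210 and 2909 CPM after treatment, and 6 of them were higher in both treated libraries and 1, Abca3, lower in both. Over all tested genes, 27.4% were higher in both and 27.8% lower in both. The 6 alveolar type 1 markers summed to 247 and 110 CPM in saline and 787 and 373 CPM after treatment, with 4 higher in both. The 6 airway markers summed to 1159 and 85.3 CPM in saline and 5735 and 3007 CPM after treatment, with 6 higher in both. Most of the airway sum was Scgb1a1 (1088 and 74.7 CPM in saline, 5305 and 2794 CPM after treatment). Sftpc was the largest part of the alveolar type 2 sum in each library. Scgb1a1 and Sftpc are short (476 and 1034 bases). Among tested genes from 57 to 2093 bases, 47.9% were higher in both treated libraries. Ranked over the 4 libraries, the basement membrane sum had exactly the reverse order of each of these 3 sums, saline replicate 2 having the most basement membrane and the least lung epithelial RNA. Col4a4 had the order of the alveolar markers. With 4 libraries no correlation is given, and the part of tissue composition in the lower basement membrane level was not tested.

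Of the other cell types, only the pericyte and smooth muscle sum did not overlap between the groups. Endothelial markers (8 genes) summed to 520 and 421 CPM in saline and 788 and 439 CPM after treatment, with 3 higher in both treated libraries (Cldn5, Emcn and Ramp2) and 0 lower. Over all tested genes, 27.4% were higher in both treated libraries and 27.8% lower in both. In lists this short, counts of a few genes can lie near those shares. The 6 tumour epithelium markers summed to 2380 and 2882 CPM in saline and 2074 and 3223 CPM after treatment, with Krt14 lower in both treated libraries and Krt5 at 0 in saline replicate 2. Krt8 and Krt18 made up most of each sum. Whether the RNA of these markers came from tumour or lung epithelial cells was not measured, so the sums do not give the tumour content. For the 6 fibroblast markers the sums were 416 and 354 CPM in saline and 400 and 259 CPM after treatment, with 3 lower in both treated libraries (Pdgfra, Dcn and Lum) and 1 higher (Tcf21). Pericyte and smooth muscle markers (7 genes) summed to 280 and 308 CPM in saline and 256 and 221 CPM after treatment, a small margin. Of them 3 were lower in both treated libraries (Pdgfrb, Cspg4 and Acta2) and 1 higher (Rgs5). Acta2 and Pdgfrb made up most of each sum. The fold change was negative in 3 of the 7 and positive in 4, with a median log2 fold change of 0.04, so the sum does not stand for the list. The sums of the mesothelial markers ranged from 136 to 231 CPM and those of the leukocyte markers from 488 to 899 CPM, both overlapping between the groups. Cardiac muscle markers summed to 64.9 to 152 CPM, nearly all of it Tnnt2, with Nppa at 0 in 3 libraries and Myl7 at 0 in 2. Which of these cells made the basement membrane RNA was not measured.

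**Figure D4:**
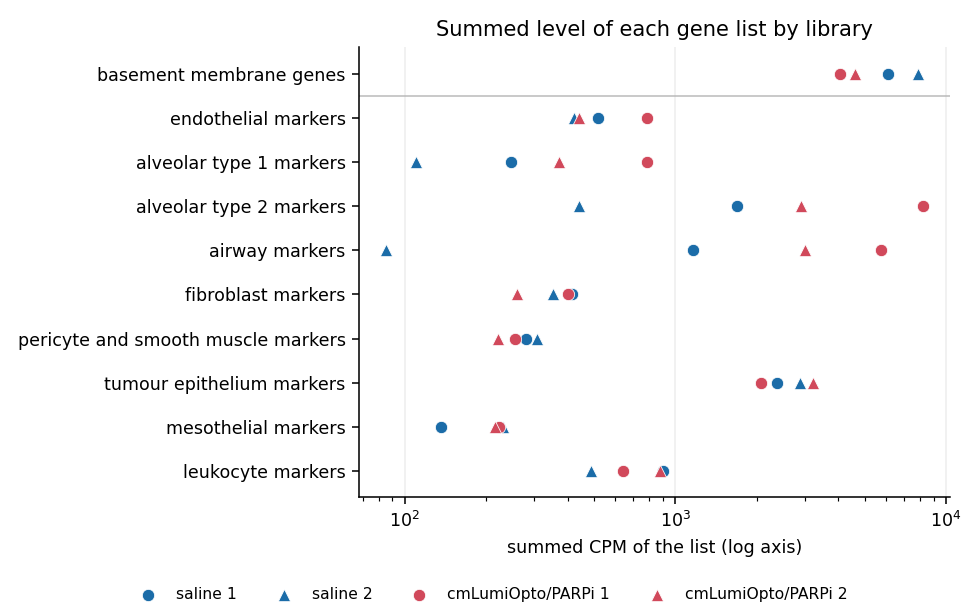
Summed CPM of the basement membrane genes and of each list of cell type markers in each library, on a log axis. Circles and triangles are replicates 1 and 2, blue for saline and red for cmLumiOpto/PARPi. The basement membrane sum is lower in both treated libraries (4045 and 4613 against 6088 and 7852 CPM), while the alveolar and airway sums are higher in both.

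Gene length also moved with the fold changes, and basement membrane genes are long. Over the 15167 tested genes, Spearman's rho between length and log2 fold change was -0.37, a description across genes that share the same 4 libraries. The median length was 4127 bases for all tested genes and 7718.5 bases for the tested members, whose range was 3496 to 17709 bases. In the longest of 5 equal groups by length (7273 to 123179 bases), 53.5% of all genes were lower in both treated libraries, and of the 16 members there 10 were lower and 1 higher. The median log2 fold change of these 16 was -0.60, against -0.27 for the group. In the next group (4923 to 7268 bases) 36.4% of all genes were lower, and 7 of the 12 members, with a median of -0.57 against -0.09. The log2 fold change lay below the median of its length group for 12 of the 16 and 11 of the 12. The remaining 2 members, Tinagl1 and Smoc1, stood in the middle group and overlapped. With an offset for gene length in the fit, the median log2 fold change was -0.49 for the members and -0.05 for all tested genes, and 14 members were lower in both treated libraries than in both saline libraries, against 28.5% of all genes. In that fit the smallest adjusted p of a member was 0.290. Lama4 had a log2 fold change of -0.15 there (against -0.41 without the offset), Agrn one of -0.13 (against -0.31), Col7a1 one of -0.30 (against -0.52) and Hspg2 one of -1.04 (against -1.36). In the longest group the share of members lower (10 of 16) was close to that of all genes, and the part of gene length in the lower basement membrane level was not tested further.

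**Figure D5:**
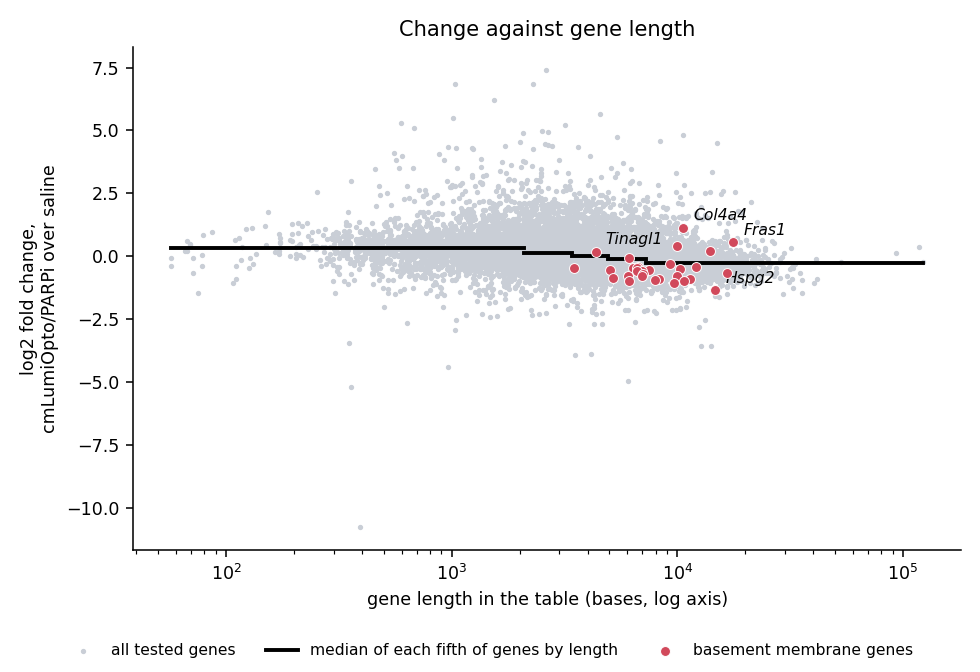
Log2 fold change of cmLumiOpto/PARPi over saline against gene length in bases (log axis) for all 15167 tested genes (grey) and the 30 tested basement membrane genes (red). Black lines give the median of each of 5 equal groups of genes by length, from 0.31 for the shortest to -0.27 for the longest, and most red points lie below the line of their own group.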

How the data were processed

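RNA of lungs with 4T1 metastases was sequenced from poly-A selected libraries, 2 of saline and 2 of cmLumiOpto/PARPi mice. The authors mapped the reads with HISAT2 and deposited raw read counts per gene, not normalized, with gene position and length. The submitters' processing notes give mm39 and the methods GRCm38. The position of 0 of the 31 members equalled that of RefSeq GRCm38.p6, so positions from the table are given as mm39 and sequences as GRCm38.p6. Whether the counting used strand is not given in the sources used here, so overlapping opposite genes, such as the ends of Col4a1 and Col4a2, may share reads.

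Counts were tested with edgeR 4.0.16 in R 4.3.3 (TMM, filterByExpr at its minimum count of 10, quasi-likelihood functions glmQLFit and glmQLFTest, Benjamini-Hochberg adjustment over 15167 genes, threshold 0.05). DESeq2 1.42.0, other normalizations, no filter, a loess offset on gene length (span 0.5), the replicate block and leaving out each library were alternatives. The scripts were tested on simulated data. The standard error is the fold change divided by the square root of F. TPM used the lengths of the table.

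The members, the pathway list and the marker lists were chosen with earlier results of these data known. All members were described by role, and from each part of the pathway list up to 3 genes per direction with the smallest p. Libraries held 15263375 to 16755228 counts. The labels number the libraries of a group as separate samples, and the sample titles do not say whether each is from its own mouse. The p-values measure the spread between these libraries. Between replicates the chi-square per degree of freedom was 26.1 in saline and 44.9 after treatment, so counting error understates the spread.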

Additional observations from a re-analysis of the deposited data

How the results depend on the processing

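With 2 libraries per group, the number of genes past the adjusted threshold depended on the fit. Without the filter on low counts 2000 of 25435 tested genes passed (7.86%), 11 of them basement membrane genes, and 10 of the pathway list. DESeq2 gave 1011 (6.67% of all tested genes), 8 and 8. With the replicate block the numbers were 1822 (12%), 11 and 11. With the length offset and the replicate block together they were 1234 (8.14%), 9 and 7. Under RLE scaling, upper quartile scaling, glmQLFit with legacy = FALSE, or the length offset without the block, 0 genes passed. Leaving out 1 library gave 0 to 31 genes (31 without saline replicate 1, 9 without saline replicate 2 and 2 without cmLumiOpto/PARPi replicate 1), and 0 members in each case. Such a fit with 1 library in a group assumes that the lone library varies like the others. The cause of these differences was not tested.

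Same-numbered libraries of the groups are from different mice, and the labels tie the numbers to no batch or day. Deviations of the same-numbered libraries from their group means correlated across genes (Pearson's r = 0.36, Spearman's rho = 0.30). With 2 libraries per group, the opposite numbering gives the same size with the other sign. The correlation therefore cannot show a pairing, and the values with the replicate block rest on a numbering that the design does not tie to anything. With the replicate block the log2 fold change was -1.34 for Hspg2 (adjusted p = 0.00804) and 1.16 for Col4a4 (adjusted p = 0.0259). With the length offset and the block, Hspg2 had -1.03 (adjusted p = 0.00863).

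The median log2 fold change of the members was -0.46 under upper quartile scaling, which moved the median of all genes from 0.02 to 0.13, and ranged from -0.71 to -0.55 when 1 library was left out. The number of members lower without overlap was 17 (27.8% of all genes), 14 under upper quartile scaling (20.9%) or the length offset (28.5%), and 20 to 23 with 1 library left out, where fewer libraries must be separated (36.6% to 39.4%). Of 360 fold changes of single members under the alternatives, 9 had the opposite sign: Lamb2 with 0.029 under upper quartile scaling, and 8 with a library left out. Members without overlap cannot change sign when a library is left out, so their sign there says nothing of stability. With 1 library left out, Col4a3 ranged from -0.23 to 1.44, Lamc3 from -1.59 to 0.0808, Col15a1 from -1.06 to 0.0949, Fras1 from -0.86 to 1.23, Frem1 from -0.64 to 2.42 and Tinagl1 from -0.0042 to 0.37. Sizes moved by over 1.5 times in members without overlap too. Without saline replicate 1, Col7a1 had -0.78. Without saline replicate 2, Lamb1 had -0.51, Col18a1 -0.36, Npnt -0.27, Col7a1 -0.23, Col4a6 -0.62 and Col4a4 0.73. Without cmLumiOpto/PARPi replicate 1, Nid2 had -0.56, Lamb3 -0.29, Col18a1 -0.43, Col7a1 -0.33, Smoc2 -0.87 and Agrn -0.59. Without cmLumiOpto/PARPi replicate 2, Agrn had -0.09, Smoc2 -0.34 and Col18a1 -1.09. Members under 20 CPM are those whose depth allows the least precision.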
